A study of Mus musculus with 2 samples.

Results

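The cytosolic ribosomal proteins are the proteins that, with ribosomal RNA, build the ribosomes of the cytoplasm. Members were the genes named Rpl or Rps with a digit, together with Rplp0, Rplp1, Rplp2 and Rpsa, that have at least 1 transcript annotated as protein coding. The kinases named Rps6k and the binding protein Rps19bp1 were left out. Of 55536 annotated genes, 91 met the rule, and a further 290 entries carried such a name without a coding transcript. The members comprised 77 core proteins, of which 46 belong to the large and 31 to the small subunit, 8 paralogs and 6 genes named as numbered copies but annotated as coding. Total RNA was profiled from the hearts of adult male mice, 8 to 10 months old, bred by crossing the lines 5xFAD and CAST. The former is transgenic, and in it mutant human amyloid precursor protein and presenilin 1 are driven by a neuronal promoter. The latter is an inbred strain of wild origin. The data form 1 group of 2 libraries, called library 1 and library 2, and no control group exists, so no test between conditions was possible. The labels do not say which of the mice carried the transgene, and both libraries bear 1 donor identifier, so separate animals are not shown and their spread may be technical.

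In a ribosome the small subunit reads the mRNA and the large subunit joins the amino acids. Each core protein is needed in about equal number, and most are made in every cell. Their mRNAs are known for a run of pyrimidines at the 5′ end, the TOP motif, through which mTOR signalling controls their translation. Rpl3l is known as a form of Rpl3, a protein close to the site where peptide bonds form, that is made in heart and skeletal muscle. Mammalian genomes also hold many processed pseudogenes of these genes, which are intronless copies of their mRNAs.

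To show what sets the muscle form apart, the first 60 bases of both coding sequences are given from the GENCODE M21 transcripts, with the 13 differing bases in capitals.
Rpl3: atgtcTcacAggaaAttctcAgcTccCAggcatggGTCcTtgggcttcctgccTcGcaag
Rpl3l: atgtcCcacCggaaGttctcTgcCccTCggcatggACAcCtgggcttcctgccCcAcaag
The longest stretch that both coding sequences share without a difference is 22 bases, at positions 145 to 166 of the Rpl3 coding sequence.
shared stretch: tacaaggctggcatgacccaca
The coding sequences of 1209 (Rpl3) and 1221 bases (Rpl3l) aligned over 1189 bases with 298 mismatches, an identity of 74.4%. Rpl3l lies on the plus strand of chromosome 17 (24727820 to 24736143, mm10) and Rpl3 on the minus strand of chromosome 15 (80077791 to 80091868). No window of 101 bases in the leading Rpl3l transcript occurs in a transcript of another gene. In the leading transcript of Rpl3, 79.2% of such windows do. Rpl3 has 21 annotated copies (at least 90% identity over at least 50% of the coding sequence). The window is as long as the fragment length implied by the deposited lengths.

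A contrasting case is Rpl27, a large subunit protein on chromosome 11 (101442298 to 101445529, plus strand). Its 408 coding bases are all present, with no difference, in the pseudogene Gm11518, so the start of both reads the same.
Rpl27: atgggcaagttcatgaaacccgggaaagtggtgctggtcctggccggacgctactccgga
Gm11518: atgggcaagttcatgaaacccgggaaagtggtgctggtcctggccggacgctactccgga

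Rpl3l was the more abundant form in both libraries. Its level was 131.82 TPM in library 1 and 124.31 TPM in library 2, where TPM is transcript abundance per length, scaled to the same total in each library. The level of Rpl3 was 49.96 and 45.11 TPM. Every Rpl3l value was thus above every Rpl3 value. Rpl3l held 72.9% ± 0.606 (SD, n = 2) of the TPM of the pair, with 72.5% and 73.4% in the 2 libraries, and exceeded Rpl3 2.70-fold ± 0.0829 (SD, n = 2). A second deposited quantification, made from the same reads by another method, gave 2.79-fold. With the TPM of all Rpl3 copies added to Rpl3, the Rpl3l share was 61.2% ± 0.401 (SD, n = 2). In estimated counts, which are not divided by length, Rpl3l exceeded Rpl3 and its copies together 1.92-fold. Rpl3l therefore led in each of these counts, whichever entry the shared Rpl3 reads were given to.

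Single transcripts carried most of these levels. Rpl3l-202, the coding transcript of 1375 bases, stood at 125 ± 7.60 TPM (SD, n = 2). The coding Rpl3-201 stood at 31.8 ± 0.905 TPM. A short coding entry of 460 bases, Rpl3-207, added 14.2 ± 2.67 TPM to Rpl3, against 3.26 TPM in the second quantification. Of the Rpl3 copies, Rpl3-ps1, which differs from the Rpl3 coding sequence by 2 mismatches, was listed at 34.71 and 32.72 TPM.

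Other paralogs took smaller or uncertain shares of their pairs. Rpl36al stood at 72.24 and 69.75 TPM in library 1 and library 2, and Rpl36a, a large subunit protein encoded on chromosome X, at 37.2 and 42.29 TPM. In the second quantification Rpl36al stood at 58.5 and 69.8 TPM and Rpl36a at 54.2 and 89.3 TPM, so the order was reversed there in library 2 but not in library 1. Rpl22l1, the partner of the RNA-binding protein Rpl22, stood at 24.54 and 23.14 TPM and held 20.3% ± 1.44 (SD, n = 2) of that pair. Rps27l held 12.9% ± 1.06 of its pair with Rps27, at 49.69 and 53.02 TPM. Rpl7l1, a nucleolar relative of Rpl7, stood at 13.98 and 16.11 TPM, or 6.16% ± 0.355 of the pair. These 3 paralogs were below their partners in every library and in both quantifications.

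The testis-enriched Rpl10l and the paralog Rpl39l were near or at zero. Rpl10l had no count in either library, which allows up to 3 counts in each. Rpl39l had 1 count in library 1 and none in library 2, at 0.07 TPM in library 1, while Rpl39 stood at 102.28 and 91.5 TPM. The plot of paralog pairs shows the levels by library.

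**Figure D1:**
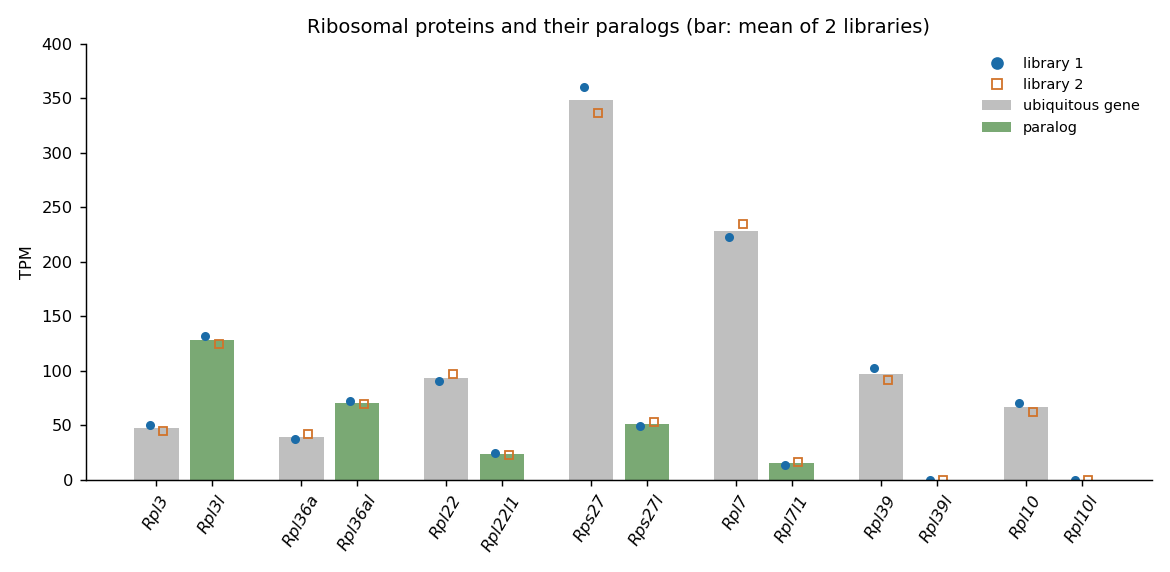
TPM (vertical axis, linear from 0) of 7 ribosomal proteins and their paralogs, with bars for the mean of the 2 libraries and points for each library. Rpl3l and Rpl36al stand above their partners, Rpl3l at 131.82 and 124.31 TPM against 49.96 and 45.11 for Rpl3, while Rpl10l and Rpl39l are at or near 0.

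A gene counted as detected when each library reached 1 TPM. All 77 core members were detected, as were 86 of the 91 members, against 48.9% of all protein-coding genes. The 5 others were Rpl10l, Rpl39l and the numbered copies Rpl36-ps4, Rpl9-ps1 and Rpl36a-ps1. In the second quantification 82 members were detected. Rpl10-ps3, Rps12-ps3, Rpl9-ps6 and Rps27rt, each at 0 there in at least 1 library, were not among them. Members held 4.01% ± 0.0329 (SD, n = 2) of the TPM summed over nuclear coding genes, at 4.04% and 3.99%. By estimated counts, which are not divided by length, they held 1.10%. In bulk tissue, fewer cells of a type and less RNA per cell cannot be told apart, so these shares describe the whole heart sample.

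The core members were abundant and close to one another. Their median was 159.67 TPM in library 1 and 159.33 TPM in library 2, against a median of 7.61 TPM for all detected nuclear coding genes. Among 22015 nuclear coding genes, the 500 with the highest mean TPM included 58 core members. The 90th percentile of the core exceeded the 10th by 4.74-fold ± 0.0472 (SD, n = 2), while the same ratio was 22.8 over all detected nuclear coding genes. The 78 proteins of the mitochondrial ribosome, which are also nuclear encoded, had a median of 27.2 TPM and a ratio of 4.60. In the second quantification the ratio was 3.55 for the core and 5.18 for the mitochondrial set, so the likeness of their spread held only in the first. The higher median of the cytosolic set held in both, at 171 and 28.7 TPM in the second.

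The subunits had similar medians. Large subunit members had a median of 153 ± 0.562 TPM (SD, n = 2) and small subunit members one of 161 ± 2.26 TPM, a ratio of 0.962 in library 1 and 0.939 in library 2. The second quantification gave a ratio of 1.00, so the order of the subunits was not stable between methods. Rpl3l, which the rule counts as a paralog, ranked 373 among nuclear coding genes by mean TPM, above 29 core members.

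**Figure D2:**
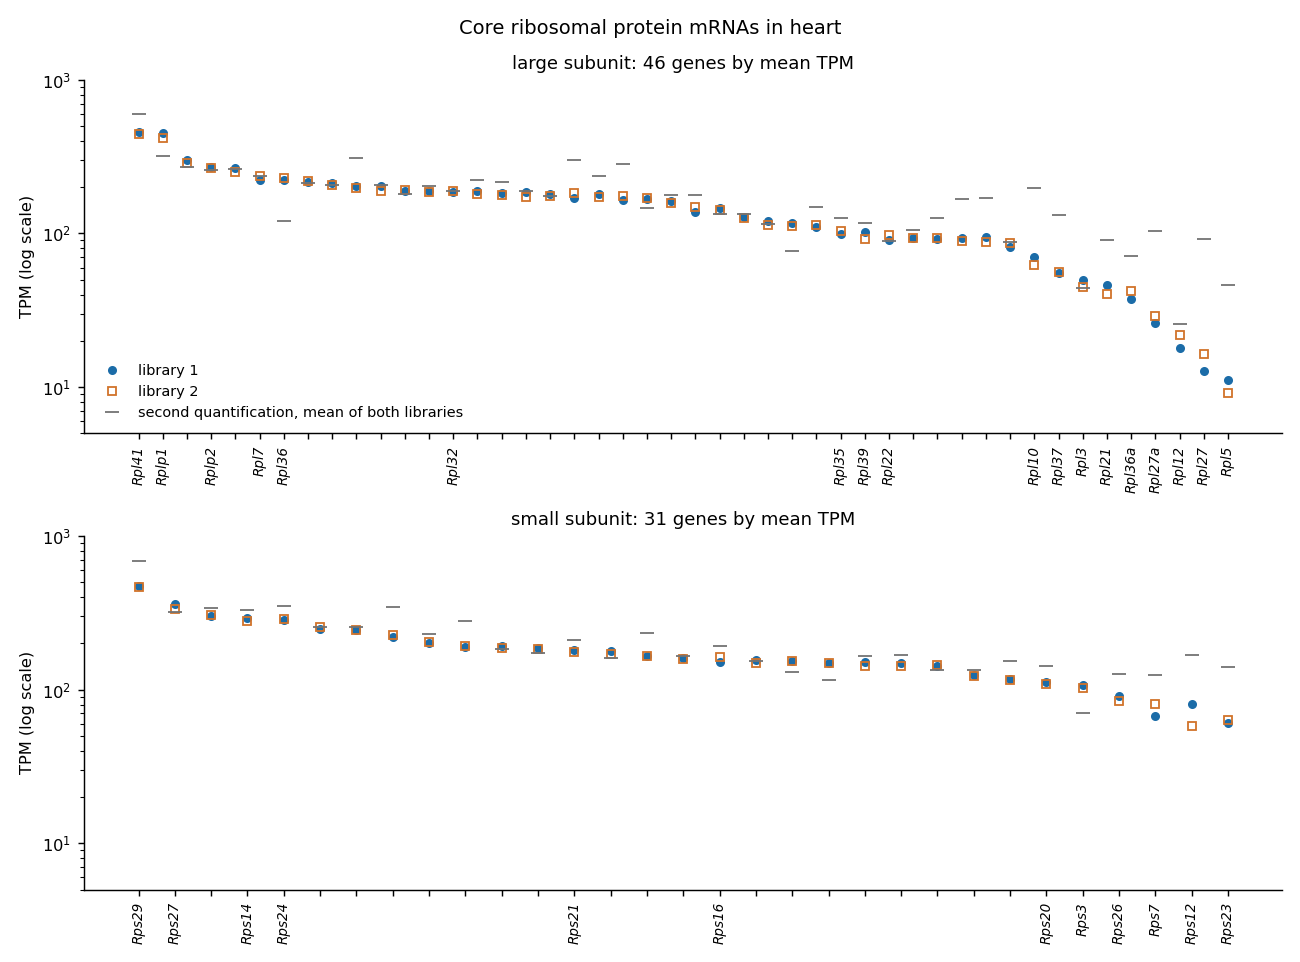
TPM (vertical axes, log scale) of the 46 large and 31 small subunit core genes, ordered by mean TPM, with points for each library and grey bars for the mean of the second quantification; only genes given in the text are labelled. Most genes lie between 50 and 300 TPM with the libraries close together, and the large subunit ends in a tail down to Rpl5, where the second quantification lies above the first.

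High levels in the large subunit included those of Rpl41 and the acidic stalk proteins. Rpl41, a very short basic peptide, stood at 456.62 and 442.91 TPM. Rplp1, a protein of the stalk that recruits translation factors, stood at 451.88 and 420.41 TPM, and its partner Rplp2 at 270.88 and 265.47 TPM. High levels in the small subunit included those of Rps29, at 470.92 and 464.35 TPM, Rps27, at 360.64 and 336.66 TPM, and Rps14, at 290.61 and 281.37 TPM. Rps29 and Rps27 are both short zinc-binding proteins. Across the 77 core genes the rank correlation of mean TPM with coding length was -0.25 and that of estimated counts was 0.32, a description over genes that share the same libraries.

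The lowest listed levels of the large subunit were those of Rpl5, Rpl27, Rpl12 and Rpl27a. Rpl5, which carries 5S ribosomal RNA into the ribosome, stood at 11.2 and 9.09 TPM. Rpl27 stood at 12.72 and 16.48 TPM, Rpl12, a protein at the base of the stalk, at 17.91 and 21.96 TPM, and Rpl27a at 26.17 and 28.96 TPM. The second quantification gave means of 46.0 for Rpl5, 92.4 for Rpl27, 25.7 for Rpl12 and 103 TPM for Rpl27a. Rpl5, Rpl27 and Rpl27a thus differed more between methods than between libraries, while Rpl12 had a log2 difference of 0.28 between libraries and of -0.35 between methods. In the small subunit the lowest were Rps23, at 60.78 and 63.61 TPM, Rps12, at 80.59 and 57.57 TPM, Rps7, at 67.22 and 81.07 TPM, and Rps26, at 90.33 and 84.75 TPM. Rps23 lies in the decoding centre and Rps26 near the mRNA exit. All 4 were higher in the second quantification, with 141, 168, 125 and 127 TPM.

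The quantifications differed at least 2-fold for 12 of the 86 members with a mean TPM of at least 1 in either, on the scale of log2(TPM + 1). The share over all protein-coding genes was 0.965%, and 1 of the 78 mitochondrial ribosomal proteins differed as much. The 8 that were lower in the first quantification were all core genes, against 0.643% of coding genes in that direction. They were Rpl27, by a log2 difference of -2.58, Rpl5 (-2.08), Rpl27a (-1.87), Rpl10 (-1.56), Rps12 (-1.27), Rpl37 (-1.23), Rps23 (-1.16) and Rpl21 (-1.04). The 4 that were higher in it were copies, against a background of 0.322%, namely Rpl10-ps3 (7.10), Rps12-ps3 (4.25), Rpl9-ps6 (3.16) and Rps27rt (3.01). Just under the 2-fold line were Rpl36 at 0.90 and Rpl11 at -0.88. Among the core, 45 of 77 were within 1.25-fold, and the rank correlation between methods was 0.846 over these genes, which share the same reads.

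**Figure D3:**
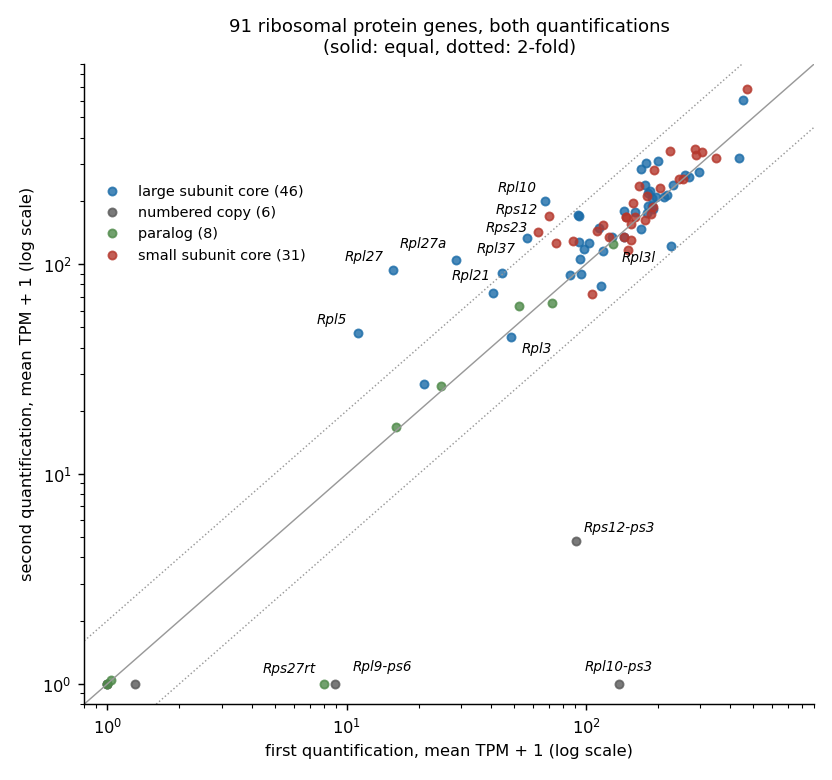
Mean TPM plus 1 of the 91 members in the first (horizontal axis) and the second quantification (vertical axis), both on log scales, with the line of equal values and dotted lines at 2-fold. Named core genes from Rpl5 to Rpl10 lie above the upper dotted line, Rpl10-ps3, Rps12-ps3, Rpl9-ps6 and Rps27rt lie far below the lower one, and Rpl3 and Rpl3l lie near the line of equal values.

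For Rpl10 and Rps12, the quantifications divided the level differently between the core gene and a member copy with the same coding sequence. Rpl10, a protein needed for the last step of large subunit assembly, stood at 70.66 and 62.59 TPM in the first quantification, and Rpl10-ps3 at 134.04 and 138.45 TPM. The second quantification listed Rpl10 at 199 TPM on average and Rpl10-ps3 at 0. The 642 coding bases of the pair have 0 mismatches, so reads within them cannot be assigned by sequence. Rps12 and Rps12-ps3, equal over 396 coding bases, stood at 80.59 and 80.85 TPM in library 1 and at 57.57 and 99.39 TPM in library 2. The authors' credibility interval in library 1 ran from 77.3 to 110 TPM for Rps12 and from 49.3 to 90.1 TPM for Rps12-ps3. Rps27rt, equal to Rps27 over 252 coding bases, was listed at 7.41 and 6.71 TPM and at 0 in the second quantification, while Rps27 stood at 349 and 321 TPM on average in the 2 quantifications. The levels of these copies, and those of Rpl10 and Rps12, are uncertain.

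Copies outside the member list were many, and most had no counts. Outside the members, 1048 annotated genes matched a member's coding sequence with an identity of at least 90% over at least 50% of its length, and 997 of them were processed pseudogenes. Of these copies, 712 had no count in either library and 101 had a mean TPM of at least 1. A copy was found for 75 of the 77 core genes, with a median of 10 and up to 84 for Rpl7a. By estimated counts, copies held 20.7% ± 0.0236 (SD, n = 2) of the sum of members and copies, and 14.9% in the second quantification. For single core genes, with copies that are members included, the share was over 50% in both libraries for 12 and under 10% for 37.

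The core genes with the lowest listed levels were among those with the most reads on copies. With copies that are members included, the share of estimated counts on copies was 88.6% ± 1.08 (SD, n = 2) for Rpl5, 85.4% ± 1.67 for Rpl27, 85.0% ± 0.427 for Rpl21, 76.2% ± 3.03 for Rpl12 and 69.3% ± 3.41 for Rpl27a. In the second quantification these shares were 72.4%, 25.5%, 71.1%, 63.8% and 45.5%. Gm15500, an exact copy of the Rpl5 coding sequence, was listed at 152.30 and 152.07 TPM, above Rpl5 itself. Gm11518, the Rpl27 copy printed above, stood at 73.15 and 77.53 TPM, also above its source. Gm10275, a copy of Rpl12, stood at 146.15 and 146.50 TPM.

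Summed with their copies, most core genes received nearly the same number of reads from both methods. For Rpl27 in library 1, the gene alone had 236 estimated counts by the first and 1353 by the second method, a ratio of 5.74, while the gene with its copies had 1749 and 1877, a ratio of 1.07. For Rpl5 the ratio went from 2.45 to 1.07, for Rps23 from 2.90 to 1.11 and for Rpl10 from 2.91 to 1.06. Ratios between 0.8 and 1.25 were found for 59 core genes alone and for 74 with their copies in library 1, and for 58 and 73 in library 2. The total over all genes had a ratio of 1.08 in library 1 and 1.05 in library 2. The exceptions in both libraries were Rpl36, with a ratio of 0.474 in library 1, Rplp1 (0.667) and Rps24 (1.36), and Rps21 in library 2 alone. This sum was chosen after seeing the data.

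**Figure D4:**
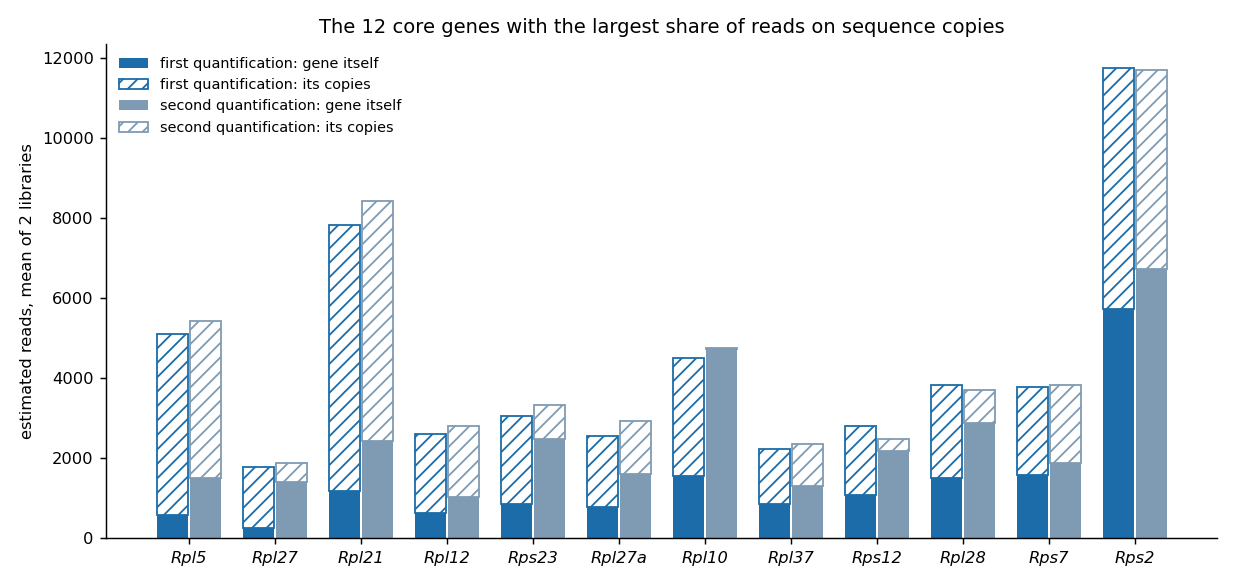
Estimated reads (vertical axis, linear from 0, mean of 2 libraries) of the 12 core genes with the largest share on copies, split into the gene itself (filled) and its copies (hatched), for both quantifications side by side. The paired bars are close in total height, for example 1768 and 1876 for Rpl27, but differ in how much the gene itself holds.

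Sequence overlap was common among core genes and rare among their mitochondrial counterparts. The median share of 101-base windows found in another gene's transcript was 42.6% over the core and 0% over the mitochondrial ribosomal proteins. It was over 50% for 33 core genes and 0 for 5, among them Rpl22, Rpl32, Rps3 and Rps21. Across the 77 core genes the size of the difference between methods had a rank correlation of 0.51 with the share of counts on copies and of 0.03 with the share of non-unique windows. These are descriptions over genes in the same libraries, and the former uses the first quantification on both sides.

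Not all of the TPM of the members lay on coding transcripts. Coding transcripts held 84.6% ± 0.659 (SD, n = 2) of it, retained-intron transcripts 6.63%, processed transcripts 5.08% and transcripts annotated for nonsense-mediated decay 3.69%. The core median was 98.6% coding, but 12 core genes were under 50%. Rps16 had 1.51% on coding transcripts, and its retained-intron entry Rps16-203 of 518 bases held 97.0 of 157 TPM. In Rpl35 the processed transcript Rpl35-203 held 97.5 of 101 TPM, and in Rps20 the retained-intron entry Rps20-201 held 85.5 of 110 TPM. The second quantification gave 3.33% coding for Rpl35 and 1.12% for Rps20. With coding transcripts alone, the ratio of the large to the small subunit median was 0.737.

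Besides coding for proteins, ribosomal protein genes are known to carry small nucleolar RNAs in their introns, which guide the modification of ribosomal RNA. In the annotation 30 members, all core genes, hold a small nucleolar RNA on their strand, against 1.27% of all protein-coding genes. They hold 58 in all, with 5 in Rpl4 and 4 in Rpl13a. The core genes lie on 19 chromosomes, with 14 on chromosome 7 and 4 on chromosome X (Rpl10, Rpl36a, Rpl39 and Rps4x).

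For the TOP motif, 40 bases around the annotated start were read from RefSeq promoters (GRCm38.p6), 20 before and 20 from the start on, for 65 of the 91 members. The windows below show 2 highly expressed genes with a long run of C and T, 1 without and the muscle paralog, with the longest run in capitals, 5′ to 3′ on the strand of the gene.
Rps27, chr3:90213629-90213668, minus: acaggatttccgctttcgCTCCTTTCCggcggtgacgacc
Rps24, chr14:24490658-24490697, plus: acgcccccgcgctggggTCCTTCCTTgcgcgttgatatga
Rpl41, chr10:128549149-128549188, minus: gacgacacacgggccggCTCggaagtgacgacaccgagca
Rpl3l, chr17:24727806-24727845, plus: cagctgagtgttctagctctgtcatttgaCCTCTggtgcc
A run of at least 8 bases made only of C or T was searched on the gene's strand, anywhere in the window. Runs wholly before the annotated start were thus counted too, although the TOP motif lies in the mRNA. It was present in 29 of the 67 windows of core genes (43.3%), against 16.0% of all 32851 windows. On the other strand the shares were 7.46% and 17.7%. In the windows shown, the longest run was 9 bases in Rps27 and Rps24, 3 in Rpl41 and 5 in Rpl3l. The other window of Rps24 has a longest run of 7, under the minimum, and that of Rpl3l one of 4. Rpl22l1 has a run of 10. Rps27l has one of 9 that lies wholly before the annotated start, and its other window has a longest run of 4. A run is a match of letters only, and the windows say nothing on where transcription began in these hearts.

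Members stayed within 2-fold between the libraries, as did nearly all genes, so this count does not set them apart. Among the 86 tested, which had a mean TPM of at least 1 and at least 10 counts in a library, 0 reached a 2-fold ratio, against 0.603% of all 11940 genes tested (0.377% higher and 0.226% lower in library 2). In library 2, 31 of the 77 core genes were higher, against 48.2% of all genes. Their median log2 ratio was -0.03, with a median of -0.01 over all genes. The direction was not stable. In the second quantification 53 of 77 were higher in library 2, with a median of 0.03. Over all genes 6319 of 11940 were higher there, with a median of 0.01. With counts scaled by the spike-ins, 65 core genes were higher, with a median of 0.07 against 0.09 over all genes. The share of all genes that were higher under spike-in scaling was not counted. The SD of the log2 ratio was 0.11 over the core, 0.13 over the mitochondrial ribosomal proteins and 0.26 over all genes, many of lower level.

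The members with the largest differences between libraries included Rps12, Rpl27 and Rpl5, which had most of their estimated counts on copies. Copies were found for 75 of the 77 core genes, so having a copy sets few apart. Rps12 was lower in library 2, with a log2 ratio of -0.48 and a ratio of estimated counts, scaled by library total, of 0.716 (exact 95% interval 0.657 to 0.782). Its numbered copy Rps12-ps3 was higher, at 0.29. The Rps12 family as a sum had a ratio of 1.01 (0.954 to 1.06). Rpl27 had a log2 ratio of 0.35, with a count ratio of 1.29 (1.08 to 1.54) alone and 1.10 (1.03 to 1.17) with its copies. Rpl5, at -0.27, had 0.867 (0.771 to 0.975) alone and 0.992 (0.954 to 1.03) with its copies. Intervals cover counting error only.

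Other members among the most different were Rpl12 at a log2 ratio of 0.28, Rps7 at 0.27 and Rpl7l1 at 0.19. Those lower in library 2 were Rpl21 at -0.18, Rpl10 at -0.17 and Rpl39 at -0.16. Rpl7l1 and Rpl39 had few estimated counts on copies, at 2.30% and 0.06%. In the second quantification the direction turned for Rps12 (0.02), Rpl5 (0.09) and Rpl12 (-0.11). The Rpl12 family as a sum had a count ratio of 1.02 (0.967 to 1.08). Core genes whose interval lay above 1 numbered 10, against 12.8% of all genes, and 12 lay below 1, against 10.4%. With copies added, 5 lay above and 7 below. The count ratio of core genes ran from 0.716 to 1.29 alone and from 0.904 to 1.10 with copies. The lowest of the latter was Rpl39, at 0.904 both alone and with its copies. Rpl3l had a count ratio of 0.943 (0.907 to 0.980) and Rpl3 one of 0.945 (0.879 to 1.02), so both forms had nearly the same ratio.

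**Figure D5:**
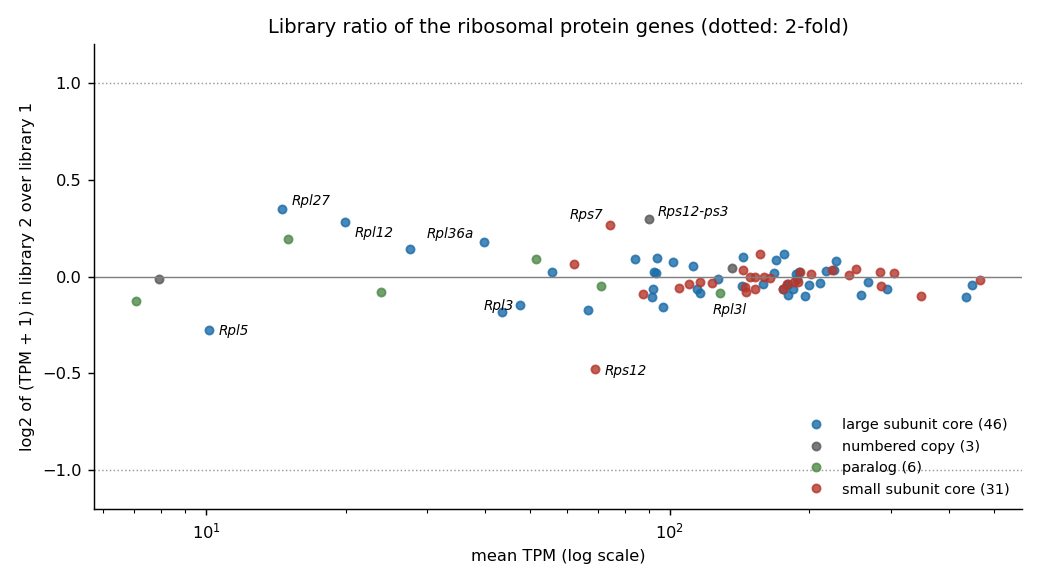
Log2 ratio of library 2 over library 1 (vertical axis, TPM plus 1) against mean TPM (horizontal axis, log scale) for the 86 members with a mean TPM of at least 1, with dotted lines at 2-fold. All members lie inside the 2-fold lines, from Rps12 at -0.48 to Rpl27 at 0.35, and the larger ratios lie at lower TPM.

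The hearts were checked against markers of other cell types. The summed TPM of 7 cardiomyocyte markers was 29900 in library 1 and 29707 in library 2, with 3 intervals above 1 and 3 below. All 6 adipocyte markers were higher in library 2, at a summed 10.6 and 39.4 TPM, with 6 intervals above 1. All 4 atrial markers were higher too, at 1163 and 1551 TPM, with 4 intervals above 1. Fibroblast markers were higher in library 2 in 0 of 6 cases, at a summed 411 and 384 TPM with 3 intervals below 1. Endothelial markers were higher in 1 of 6, at a summed 416 and 423 TPM, with 1 interval above 1 and 5 below. The 1 that was higher was Fabp4, at 252.55 and 272.1 TPM. Of macrophage markers 3 of 6 were higher, with 1 interval above 1, and of erythroid markers 1 of 5, with 2 intervals below 1. Over all genes tested, 48.2% were higher in library 2, and intervals lay above 1 for 12.8% and below 1 for 10.4%. The 6 skeletal muscle markers, of which 3 were detected, summed to 12.4 and 13.2 TPM, against an Rpl3l level of 131.82 and 124.31 TPM. The part of these cell types in the library ratios of the members was not tested.

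Proteins that complete the ribosome but fall outside the naming rule stood at similar levels. Fau, a ubiquitin-like fusion with a small subunit protein, stood at 181.63 and 173.34 TPM, and Rack1, a signalling scaffold on the small subunit, at 122.48 and 120.5 TPM. Other mRNAs with a known TOP motif were all detected, 12 of 12, led by Tpt1 at 868 ± 26.5 TPM (SD, n = 2), the elongation factor Eef2 at 338 ± 6.11 TPM and Eef1a1 at 310 ± 10.3 TPM. Regulators of these mRNAs and of mTOR signalling were detected in 11 of 11 cases, with the RNA-binding Cnbp at 107 ± 1.30 TPM, the translation repressor Eif4ebp1 at 29.3 ± 1.47 TPM and the TOP-binding Larp1 at 20.1 ± 0.686 TPM.

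Genes that make ribosomes had much lower median mRNA levels than the core ribosomal protein genes. Ribosome assembly genes, 18 of 18 detected, had a median of 7.62 TPM and were led by the nucleolar proteins Ncl at 47.5 ± 1.98 TPM (SD, n = 2) and Npm1 at 45.9 ± 0.813 TPM and by Sbds at 17.6 ± 0.997 TPM. Grwd1, a chaperone of Rpl3, stood at 3.81 ± 0.170 TPM, and Mettl18, which methylates Rpl3, at 1.36 ± 0.0778 TPM. Genes of ribosomal RNA synthesis, 7 of 7 detected, were led by the polymerase subunit Polr1a at 16.1 ± 1.46 TPM, Ubtf at 14.9 ± 0.771 TPM and Rrn3 at 12.3 ± 0.919 TPM. Between the libraries, 4 of the 18 assembly genes and 6 of the 7 synthesis genes had a higher TPM in library 2, against 48.2% of all genes tested. By count ratio, 1 assembly gene and 2 synthesis genes had an interval above 1 (12.8% of all genes) and 0 had one below 1 (10.4%). The assembly gene was Nop58, which is not among the 4 with a higher TPM and was named after its values were seen.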

How the data were processed

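Total RNA from 2 heart libraries was sequenced per the labels from 300 ng each, with a strand-specific kit, ribosomal RNA reduction and spike-ins. Per the deposited readme, values refer to mm10 and GENCODE M21. The names of the quantifiers are not stated there. The first quantification (gene and transcript tables) holds expected counts, TPM, FPKM and the percent of a gene's abundance on each transcript, per the file headers. It also holds a credibility interval of TPM by the authors, a signal whose level is not stated in the file. The second quantification, a deposited transcript table of estimated counts and TPM, was summed per gene. Whether strand was used in counting is not stated, so overlapping and antisense genes may share reads.

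The members, lists and measures were chosen with earlier results of these data known. Annotated genes held 39668202 and 36926511 expected counts. Log2 ratios were taken of TPM with a pseudocount of 1, which understates changes of low genes. Count ratios were scaled by totals and carry exact Clopper-Pearson 95% intervals. No p-value was computed. Copies were found with BLAST 2.17.0 (plus strand, e-value 1e-10), and each was given to its best-scoring member. Scaling factors came from edgeR 4.0.16 (TMM) and DESeq2 1.42.0, on rounded expected counts. Other tools were Python 3.11.15, pandas 2.3.3, numpy 2.4.6, scipy 1.17.1, matplotlib 3.10.9 and R 4.3.3. The 2-fold rule was tried on simulated counts drawn for each gene separately. No reads were shared between genes and copies there, so the trial says nothing on shared reads. Named were Rpl3, Rpl3l, the paralog pairs, the 4 highest and 4 lowest core genes of each subunit, the 5 members most different between libraries in each direction, the 5 furthest apart between quantifications and the first 3 of each pathway list. A few genes under this rule are not reported here. Other named genes were chosen after their values were seen. Pseudocounts, filters, units, scalings and leaving out a library were varied.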

Additional observations from a re-analysis of the deposited data

How the results depend on the processing

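Of 48 alternatives, 29 stayed within the spread between libraries, or within 1.5 times for a count. This number does not measure stability, because part of the alternatives could not move. With 2 libraries, a value from 1 of them always lies within the spread, and a share in FPKM equals that in TPM. The second quantification moved every share, median and ratio beyond the spread. It detected 82 members in place of 86. In the second quantification the member share of nuclear coding TPM was 4.34%, the core median 171 TPM, the ratio of the 90th to the 10th percentile 3.55, the ratio of the large to the small subunit median 1.00, the Rpl3l share 73.6%, the number of core genes higher in library 2 53, the TPM of pseudogenes named Rpl or Rps 8.03% of that of the members (14.2% in the first) and the share on coding transcripts 78.2%. With expected counts in place of TPM, the member share was 1.10%, the Rpl3l share 77.5% and the pseudogene level 10.7%. Over all genes not on the mitochondrial chromosome the member share was 2.32%, and it was 3.85% for the core alone. The core median was 134 in FPKM and 126 TPM over coding transcripts, where the ratio of the subunits was 0.737. Spike-in scaling placed 65 core genes higher in library 2, with a median log2 ratio of 0.07 against 0.09 over all genes. In the second quantification 6319 of all 11940 genes tested were higher in library 2. Between the quantifications, 6 core genes were at least 2-fold apart in estimated counts in both libraries and 1, Rpl36, with copies added, both chosen after seeing the data. The cause of these changes was not tested.

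With 1 library left out, the member share ranged from 3.99% to 4.04%, the core median from 159.33 to 159.67 TPM, the percentile ratio from 4.71 to 4.77, the subunit ratio from 0.939 to 0.962, the Rpl3l share from 72.5% to 73.4%, members 2-fold apart between quantifications from 11 to 13, pseudogenes from 14.1% to 14.2% and the coding share from 84.1% to 85.1%, while 86 members were detected in either library. The number of core genes higher in library 2 needs both. No paired analysis was possible because there is 1 group. Depth limits only the lowest members, such as Rpl10l and Rpl39l.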
